A study of Mus musculus with 31 samples.

Results

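Expression variation was described among the livers of the 8 normoxic (NO) mice of the study, which are 8 of its 31 arrays. These were male C57BL/6JRj mice of 16 weeks that were exposed in their cages to cycles of air for 8 hours a day over 14 days and sacrificed on day 15, so that they shared the noise and gas flow of the treated mice but never the hypoxia. The mice were housed in groups, but which mice shared a cage, and the hour of sacrifice of each mouse, are not given in the sources used here. One liver per mouse was hybridized to 1 of the 8 positions of a single Illumina MouseRef-8 v2.0 chip, so no chip difference enters the comparison between them. The array carries 25697 probes, and 7186 of them had a detection p-value under 0.01 on all 8 arrays. Those with a single gene symbol read 5375 genes, each taken from its brightest probe, out of 16593 genes on the array. All levels below are normalised log2 intensities, so that a difference of 1 is a 2-fold difference, and the SD is that of the 8 mice (n = 8). A liver is a mixture of cells, and a higher level can come from more cells of a type or from more RNA per cell, which cannot be told apart here.

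The labelled tissue was borne out by its markers, since all 10 hepatocyte marker genes were detected on all 8 arrays. Eif2s3y, a gene of the Y chromosome, was detected in all 8 mice. Kdm5d and Uty, also of the Y chromosome, were each detected in 4, and Xist, which marks females, in none. None of the 13 T and NK cell markers on the array was detected on any array. The number of detected probes ran from 8359 to 9158 per liver, and the correlation between 2 livers over all genes from 0.921 to 0.978 (median 0.952). NO2 and NO3 stood somewhat apart, with the most detected probes (9158 and 8992) and the lowest median correlation with the others (0.944 and 0.942). They were also the single distant mouse in 104 and 113 of the 349 genes (6.49% of all) in which 1 mouse lay far from the other 7. The main results are therefore also given without both mice where their values differ.

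The liver holds several programmes that change within hours. The acute phase response is the best known. Cytokines such as interleukin 6 and interleukin 1, released in infection or injury, drive hepatocytes to secrete serum amyloid A, lipocalin 2, orosomucoid, fibrinogen and other plasma proteins. Immediate early genes such as Fos and Egr1 are switched on within minutes by growth factors or stress and have short-lived mRNA, and genes of fatty acid synthesis and of gluconeogenesis follow feeding and fasting.

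The promoters of Saa1, Saa2, Saa3, Lcn2 and Orm2 are shown first. These are acute phase genes of wide spread that varied together across the mice. Fos, Cxcl1, Inmt and Nnmt had a larger SD than Orm2. Each is the 250 bases upstream of the gene start from RefSeq, read 5′ to 3′ on the strand of the gene, with build GRCm38.p6 coordinates: Saa1 at chr7:46742981-46743230 on the minus strand, Saa2 at chr7:46751583-46751832 on the plus strand, Saa3 at chr7:46715677-46715926 on the minus strand, Lcn2 at chr2:32387740-32387989 on the minus strand and Orm2 at chr4:63362199-63362448 on the plus strand. Capitals mark the letters TTNNGNAA on either strand, the core of sites for C/EBP, a family of hepatocyte factors of the acute phase response. These letters occurred in 12 of the 19 acute phase genes with a promoter in the table, beside 33.7% of the 4461 measured genes with one and 36.8% of all 32851 promoters.
Saa1: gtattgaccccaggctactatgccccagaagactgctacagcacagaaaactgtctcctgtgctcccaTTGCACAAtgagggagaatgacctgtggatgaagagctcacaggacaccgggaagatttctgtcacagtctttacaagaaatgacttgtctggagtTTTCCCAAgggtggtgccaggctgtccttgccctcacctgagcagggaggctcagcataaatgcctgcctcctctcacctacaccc
Saa2: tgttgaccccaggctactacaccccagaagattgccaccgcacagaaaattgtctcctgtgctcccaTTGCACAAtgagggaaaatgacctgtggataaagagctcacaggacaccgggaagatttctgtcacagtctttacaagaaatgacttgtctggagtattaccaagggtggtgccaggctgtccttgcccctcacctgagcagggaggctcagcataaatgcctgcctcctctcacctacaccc
Saa3: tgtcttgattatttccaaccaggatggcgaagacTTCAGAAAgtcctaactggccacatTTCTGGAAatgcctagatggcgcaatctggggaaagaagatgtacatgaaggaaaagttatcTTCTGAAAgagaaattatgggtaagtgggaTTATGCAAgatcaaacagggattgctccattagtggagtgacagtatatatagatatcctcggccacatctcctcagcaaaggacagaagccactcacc
Lcn2: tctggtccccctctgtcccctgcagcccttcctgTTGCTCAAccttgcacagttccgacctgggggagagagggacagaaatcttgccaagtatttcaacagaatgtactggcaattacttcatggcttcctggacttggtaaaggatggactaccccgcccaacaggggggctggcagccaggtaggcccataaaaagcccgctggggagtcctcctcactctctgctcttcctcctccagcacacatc
Orm2: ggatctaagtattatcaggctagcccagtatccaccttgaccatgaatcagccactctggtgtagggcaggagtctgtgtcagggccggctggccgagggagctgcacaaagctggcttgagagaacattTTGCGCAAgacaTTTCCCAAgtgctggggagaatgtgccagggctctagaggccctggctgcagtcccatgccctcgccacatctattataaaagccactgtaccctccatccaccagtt
A match is a description of the letters only. The κB-type letters GGNNTTTCC, bound by NF-κB factors, were found in 3 of the 19 (Cp, Saa3 and Serpina3n), beside 6.05% of measured genes and 4.93% of all promoters. They were also found in 3 of 10 immediate early genes (Dusp6, Ier3 and Mcl1). The STAT-type letters TTCNNNGAA were found in 6 of the 19 (Apcs, Fga, Fgb, Hamp, Itih4 and Socs3), beside 7.08% and 7.02%.
The chemokine gene Cxcl1, chr5:90890995-90891244 on the plus strand, held the κB-type letters at 2 places, here in capitals. The CArG box is the site of serum response factor. Within the 250 bases it was found in 1 of 10 immediate early genes, Zfp36, chr7:28379229-28379478 on the minus strand. It was found in 1.28% of measured genes and 1.47% of all promoters. Bases farther upstream were not searched, so a site of Fos or another gene beyond this window would be missed.
Cxcl1: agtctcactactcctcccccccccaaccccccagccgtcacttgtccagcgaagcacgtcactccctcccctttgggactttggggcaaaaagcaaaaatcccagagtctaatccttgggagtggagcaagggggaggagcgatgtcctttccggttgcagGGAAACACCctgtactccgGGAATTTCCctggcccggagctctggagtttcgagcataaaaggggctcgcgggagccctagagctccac
Zfp36: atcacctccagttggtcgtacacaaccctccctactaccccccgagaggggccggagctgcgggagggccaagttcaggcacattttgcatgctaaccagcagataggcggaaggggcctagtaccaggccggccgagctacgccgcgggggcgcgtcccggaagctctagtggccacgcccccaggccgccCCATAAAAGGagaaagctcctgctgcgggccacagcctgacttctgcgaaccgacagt

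Most genes differed little between the mice. The median SD was 0.27 (25th to 75th percentile 0.20 to 0.38), the lowest was 0.05 and the highest 2.95. An SD of 0.5 or more was found for 601 genes (11.2%), and of 1 or more for 70 genes (1.3%). Without NO2 and NO3 these counts were 411 and 58. With 8 mice the 95% interval of an SD runs from 0.661 to 2.04 times its value, so the order among neighbours is loose, and 281 genes outside the 30 of largest SD had an interval that held the SD of the gene ranked 30 (1.25). The spread was not confined to dim genes, as the genes with a mean of 10.51 or more held 24 of the 70 genes and those with a mean up to 8.09 held 3, although the median SD was 0.22 in the former and 0.32 in the latter, with like numbers of genes in both. In all but 2 of the 70 genes no single mouse lay far from the others. Not taken up again below, among the 30 genes of largest SD, were Obp2a (SD 1.67), Fam25c (1.44), Nat8 (1.33), Ddit3 (1.31), Selenbp2 (1.29) and Atg3 (1.25). On the deposited signal without further background correction, 311 genes had an SD of 0.5 or more and 41 of 1 or more.

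**Figure D1:**
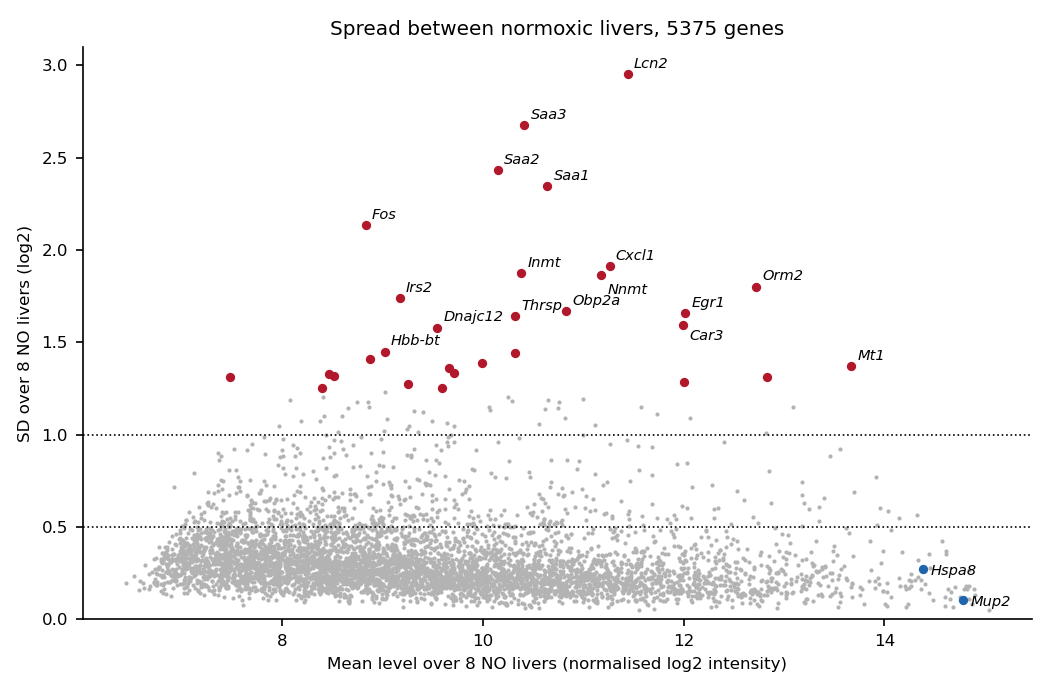
SD over the 8 NO livers (vertical, log2) against mean level (horizontal, normalised log2 intensity), 1 point per gene, with dotted lines at SDs of 0.5 and 1. The 30 genes of largest SD are red and range from 1.25 to 2.95, and the blue points mark Hspa8 and Mup2, bright genes with SDs of 0.27 and 0.10.

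The 4 genes of largest SD all belong to the acute phase response. Lcn2, a lipocalin that withholds bacterial siderophores, had an SD of 2.95 (95% interval 1.95 to 6.01). Its level was 10.25 in NO1, 14.86 in NO2, 14.82 in NO3, 13.35 in NO4, 13.17 in NO5, 9.27 in NO6, 7.59 in NO7 and 8.22 in NO8, a 154-fold range on this scale, whose highest values lie near the top of the array's range. NO2 to NO5 were thus high, NO6 to NO8 low, and NO1 lay between them.

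Saa2, an acute phase apolipoprotein of HDL, was high and low in the same groups of mice, with 9.92 in NO1, 12.18 in NO2, 12.47 in NO3, 11.78 in NO4, 12.63 in NO5, 7.70 in NO6, 6.83 in NO7 and 7.68 in NO8 (SD 2.43). Its close copy Saa1 ran from 6.87 to 12.87 (SD 2.34), and because the 2 genes are nearly identical in sequence their probes may share signal. Saa3, a more distant member that macrophages and fat cells also make, ran from 7.62 in NO7 to 13.80 in NO5 (SD 2.67). In NO4 it stood at 10.65, below the other 3 high livers. Without NO2 and NO3 the SDs were 2.46 for Lcn2, 2.40 for Saa2, 2.27 for Saa1 and 2.39 for Saa3, so these 4 did not rest on that pair of mice.

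Of 26 acute phase genes on the array 22 were detected in all 8 livers. Their median SD was 0.70, against 0.27 over all genes, and 16 of them had an SD of 0.5 or more and 7 of 1 or more, beside 11.2% and 1.3% of all genes. Orm2, an orosomucoid that binds basic drugs in plasma, ran from 10.39 in NO7 to 14.88 in NO2 (SD 1.80), and Mt1, a metallothionein that binds zinc, from 11.73 in NO1 to 14.91 in NO2 (SD 1.37). Socs3, the feedback inhibitor of interleukin 6 signalling, was highest in NO4 (11.23) and lowest in NO7 (7.30; SD 1.25). Lower in the order were Fgb (0.97), Lbp (0.94) and Apcs (0.88), which encode a fibrinogen chain, the lipopolysaccharide binding protein and serum amyloid P. The classical plasma proteins haptoglobin (Hp, SD 0.27), hemopexin (Hpx, 0.18) and the fibrinogen chain Fga (0.12) varied little, with means of 14.84, 14.84 and 14.75 close to the highest level of any gene (15.09). Hamp, which encodes the iron hormone hepcidin, kept apart from the rest, with 12.07 in NO4 and between 13.89 and 14.43 in the other 7 mice.

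The acute phase genes also varied together. The median correlation between 2 of the 22 genes was 0.69 (0.65 without NO2 and NO3), above 0 in 189 of 231 pairs, whereas the median over all pairs of the 5375 genes was near 0 (0.0035). A linear model in limma of every gene on the level of Saa2 called 20 of 5374 genes (0.372%) at a Benjamini-Hochberg adjusted p under 0.05, 14 rising with Saa2 (0.261%) and 6 falling. Of the 21 other acute phase genes 6 were called, all rising with it (Saa1, Orm2, Lcn2, Apcs, Saa3 and Orm1), and 16 rose with it at an unadjusted p under 0.05, beside 4.91% of all genes. Lcn2 rose by 1.17 ± 0.10 (SE) per unit of Saa2 (limma, adjusted p = 0.000572), with r = 0.964 (exact permutation p = 0.000744, adjusted 0.352) and rho = 0.833 (exact permutation p = 0.0154). Orm2 rose by 0.72 ± 0.06 (limma, adjusted p = 0.000572), with r = 0.968 and rho = 0.905 (exact permutation p = 0.00107 and 0.00456). Without NO7 and NO8, the mice farthest from the median of Saa2, r was 0.922 for Lcn2 and 0.939 for Orm2.

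Genes outside the acute phase list also followed Saa2. Dnajc12, a co-chaperone of the HSP40 family, rose by 0.63 ± 0.06 per unit (limma, adjusted p = 0.00074), Nnmt, which methylates nicotinamide, by 0.73 ± 0.08 (adjusted p = 0.00202), and Fgl1, a fibrinogen-like protein that hepatocytes secrete, by 0.36 ± 0.04 (adjusted p = 0.00485). Lrg1, Tnfrsf8, Rpap3, Gas6 and A2ml1 made up the other genes that rose. The genes that fell were Acot1, Cyp2c50, Aldh3a2, Tsc22d1, Cyp2c37 and Sf3b3. Acot1, a thioesterase that frees fatty acids from coenzyme A and is a known target of PPARα, fell by 0.51 on the log2 scale per unit of Saa2 (SE 0.04, limma, adjusted p = 0.000418), with r = -0.981 (exact permutation p = 0.00102) and rho = -0.857 (exact permutation p = 0.0107). The 20 relations kept their sign without NO7 and NO8, with an absolute r of at least 0.837.

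The exact permutation test of r called none of the 5374 genes on Saa2 after adjustment, with 487 at an unadjusted p under 0.05, against 529 with limma. Its smallest p with 8 mice is 2.48e-05. With detected-probe number added to the model, limma called 8 of the 20 genes (Acot1, Dnajc12, Fgl1, Lcn2, Nnmt, Orm2, Saa1 and Tsc22d1), and without NO2 and NO3 it called 5 of them (Acot1, Dnajc12, Lcn2, Orm2 and Saa1). The count was 12 without NO2 alone, 11 without NO3, 7 without NO7 and 9 without NO8.

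Markers of leukocytes were examined beside the acute phase genes. Of 12 neutrophil markers only Lcn2, which hepatocytes also make, was detected in all 8 livers. S100a8 and S100a9, calprotectin subunits abundant in neutrophils, were detected in 7 of 8. S100a8 stood at 7.97 in NO1, 11.29 in NO2, 10.05 in NO3, 10.33 in NO4, 10.07 in NO5, 6.80 in NO6, 5.19 in NO7 and 9.15 in NO8, so that the highest 4 livers were again NO2 to NO5. Of the granule genes, Ltf was detected in 4 livers, Camp in 3, and Mpo, Elane and Ngp in 1 each. Retnlg was detected in 2, the receptor Csf3r in 1 and Cxcr2 in none. Ltf (6.55 to 7.80) and Retnlg (5.47 to 8.06) were highest in NO2 to NO5, against at most 5.45 and 5.27 in the others. Camp was highest in NO3 (7.07) but lowest in NO4 (5.39). Il1b, on the same list, was detected in 2 livers and was lowest in NO2 (5.02). The summed level of the 11 markers other than Lcn2, most of it from S100a8 and S100a9, ran from 8.75 in NO7 to 12.22 in NO2, with 11.06 to 11.45 in NO3 to NO5 and at most 10.43 in the others. The 7 detected Kupffer cell markers had a median SD of 0.34 and a median pairwise correlation of 0.65, and the summed level of the 11 on the array was highest in NO2 (12.18) and lowest in NO8 (11.07). None of the 7 was called on Saa2 by limma, beside 0.372% of all genes. At an unadjusted p under 0.05 there was also none, beside 4.91% of all genes rising and 4.93% falling. For 7 genes these counts are near those shares. The part of immune cells in the spread of the acute phase genes was not tested.

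**Figure D2:**
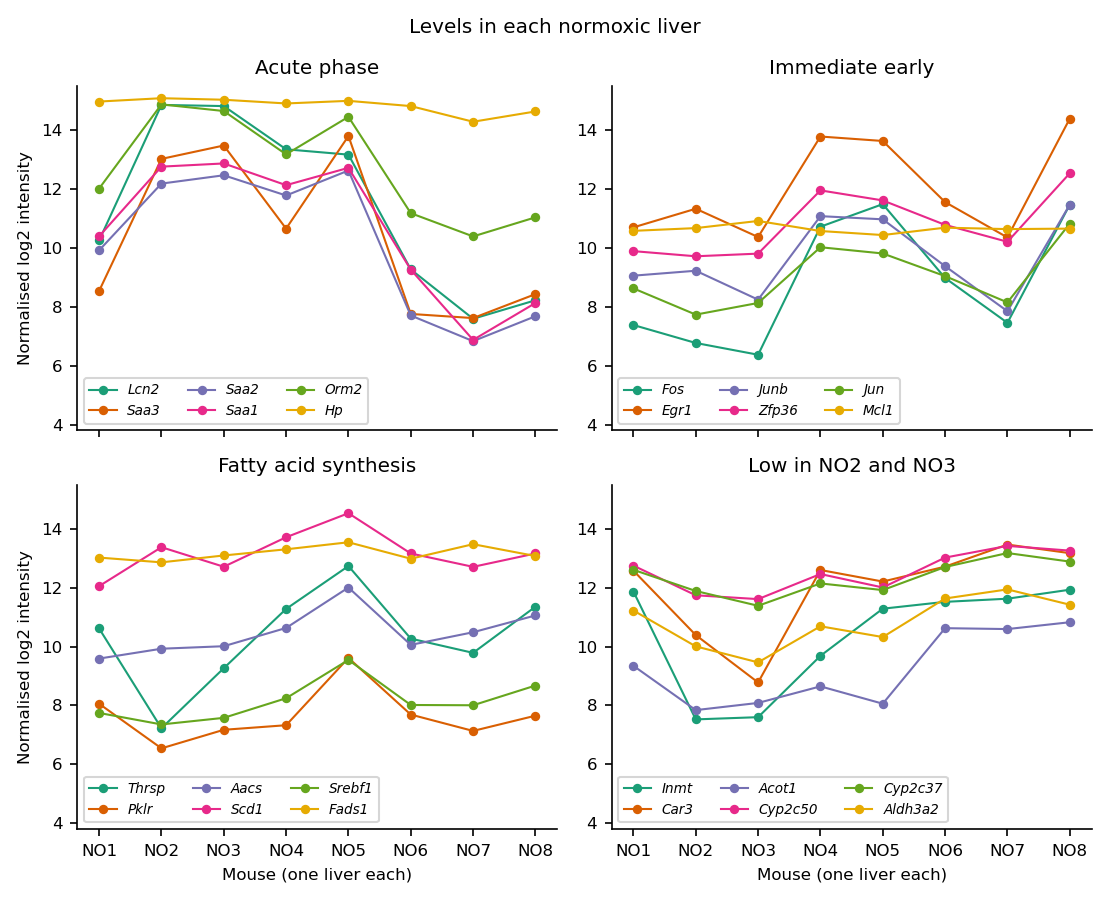
Normalised log2 intensity (vertical) of 6 genes per panel in each of the 8 NO livers (horizontal), with lines that only join the points of a gene. The acute phase genes are high in NO2 to NO5 with Hp flat, the immediate early genes are high in NO4, NO5 and NO8 with Mcl1 flat, the genes of fatty acid synthesis peak in NO5, and Inmt and Car3 are lowest in NO2 and NO3.

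Immediate early genes formed a second pattern, in which several were highest in NO4, NO5 and NO8. NO4 and NO5 were also among the livers high in acute phase genes. Of 24 such genes on the array 11 were detected in all livers, with a median SD of 0.94, the highest of the 23 lists with 5 or more detected genes, and 10 had an SD of 0.5 or more, beside 11.2% of all genes. Fos, a subunit of the AP-1 factor, was at 7.38 in NO1, 6.77 in NO2, 6.37 in NO3, 10.72 in NO4, 11.49 in NO5, 8.98 in NO6, 7.46 in NO7 and 11.47 in NO8 (SD 2.14, 95% interval 1.41 to 4.35). Egr1, a zinc finger factor, was at 13.78, 13.63 and 14.39 in NO4, NO5 and NO8 and between 10.35 and 11.56 in the other 5 (SD 1.66). The AP-1 subunit Junb (SD 1.36), Zfp36 (1.09), which destabilises cytokine mRNA, and Jun (1.09) were likewise highest in NO4, NO5 and NO8. Id3, an inhibitor of helix-loop-helix factors, was lowest in these 3 mice (7.06, 7.98 and 7.90, against 8.91 to 9.65), and Mcl1, an anti-apoptotic gene, hardly varied (SD 0.14). The median correlation within the list was 0.34, with 30 of 55 pairs above 0, and -0.02 with 27 pairs above 0 without NO2 and NO3. No gene of this list was called on Saa2 by limma, beside 0.372% of all genes. None reached an unadjusted p under 0.05, beside 4.91% of all genes rising and 4.93% falling. For 11 genes these counts are near those shares, so they do not set this pattern apart from that of Saa2. No model was fitted on an immediate early gene, so this pattern is a description.

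Grouping the 100 genes of largest SD by correlation gave 6 modules of 5 or more genes that held 64 of them. Because the genes were grouped by these values, the modules are descriptions with no test. The first held 18 genes (Lcn2, Saa3, Saa2, Saa1, Cxcl1, Nnmt, Orm2, Dnajc12, Fabp5, Tnfrsf8, A2ml1, Acnat2, Gas6, Fgb, Rpap3, Lbp, Slc41a2 and Fgl1), of which 7 were on the acute phase list, with a median correlation of 0.88 (0.84 without NO2 and NO3). Cxcl1, a chemokine that attracts neutrophils, differed from the others in NO6, where it was at 12.20, near NO4 (11.98), while it was at 8.62 in NO1.

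The second module ran the other way. Its 13 genes (Inmt, Car3, Acot1, Rnf125, Tsc22d1, Aldoa, Ces1d, Cyp4a12b, Upp2, Elovl3, Ces1f, Ces1e and Deptor) had a mean deviation of -1.59 in NO2 and -1.73 in NO3 from the means of the genes. Inmt, a methyltransferase of indoles, was at 7.53 in NO2 and 7.60 in NO3, at 9.69 in NO4 and between 11.29 and 11.93 in the other 5. Car3, a carbonic anhydrase abundant in liver, fat and muscle, was at 10.39 in NO2, 8.78 in NO3 and between 12.21 and 13.47 in the other 6. Ces1d, a carboxylesterase that hydrolyses lipid esters, was at 11.06 and 11.44 against 13.46 to 13.85. Without NO2 and NO3 the SD of Inmt was 0.83 in place of 1.88, and that of Car3 was 0.45 in place of 1.59, so the spread of these 2 genes rested on that pair of mice. Car3 and Lpl were the only ones of 10 fat cell markers detected in all livers. Adipoq, Plin4 and Cidec were detected in 1 liver, and in each case this was NO2 (7.70, 6.28 and 6.55, against at most 5.66, 5.35 and 5.08 in the others). Lep was detected in 2 livers and was lowest in NO2 (5.24, against 5.70 to 6.33 in the others). The part of fat cells in these values was not tested. Retn, Plin1, Fabp4 and Aqp7 were detected in no liver. The genes of the Ces1 family are near-identical, so their probes may share signal. The median correlation within the module was 0.85, and 0.63 without NO2 and NO3. Acot1 had an SD of 1.27, and of 1.17 without these mice, being also low in NO4 and NO5 (8.65 and 8.06, against 10.60 to 10.83 in NO6 to NO8).

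The third module held 10 genes with the 5 immediate early genes Fos, Egr1, Junb, Zfp36 and Jun, and with Irs2, Foxq1, App, Ddit4 and Rnu6. Irs2, the insulin receptor substrate that fasting induces in liver, was at 11.52, 10.09 and 11.13 in NO4, NO5 and NO8 and at 6.45 in NO3 (SD 1.74). The fifth module (Plk3, Chac1, Wsb1, Leng9, Alas1, Pim3, Socs2 and Noct) was high in NO4 and NO8 but not in NO5. Alas1, the first enzyme of heme synthesis, was at 13.95 and 14.57 in these 2 mice and between 11.60 and 13.19 in the others, and Chac1, which degrades glutathione, was at 10.77 and 10.03 against at most 8.86. The sixth (Apoc2, Inhbe, Psmd8, Hc and Osgin1) was lowest in the same 2 mice. Hc, which encodes complement component C5, was at 10.23 in NO8 and between 12.08 and 13.11 in the others.

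The fourth module on average separated NO1 to NO3 from NO4 to NO8. Its member Golim4 was an exception in NO2, where it stood at 9.17, above NO4 (9.14). Its 10 genes (Pcyt1a, Eif4ebp2, Ceacam1, Tle1, Gkap1, Dek, Gna13, Mysm1, Golim4 and Tob2) had a mean deviation of -1.30 in NO1 and -0.61 in NO2, and an even lower one in NO3, against 0.53 to 0.77 in the other 5 mice. Pcyt1a, the rate-limiting enzyme of phosphatidylcholine synthesis, was at 6.48, 8.07 and 7.24 in NO1 to NO3 and between 9.57 and 10.13 in NO4 to NO8 (SD 1.41). NO1, NO2 and NO3 held positions A, B and C of the chip and the other mice positions D to H, so mouse and position cannot be told apart in these data. The same holds for every other pattern described here, since NO1 to NO8 held positions A to H in order. The second probe of Ceacam1, an adhesion molecule with a role in insulin clearance, gave the same pattern (r = 0.940, exact permutation p = 0.00176, adjusted p = 0.0131).

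**Figure D3:**
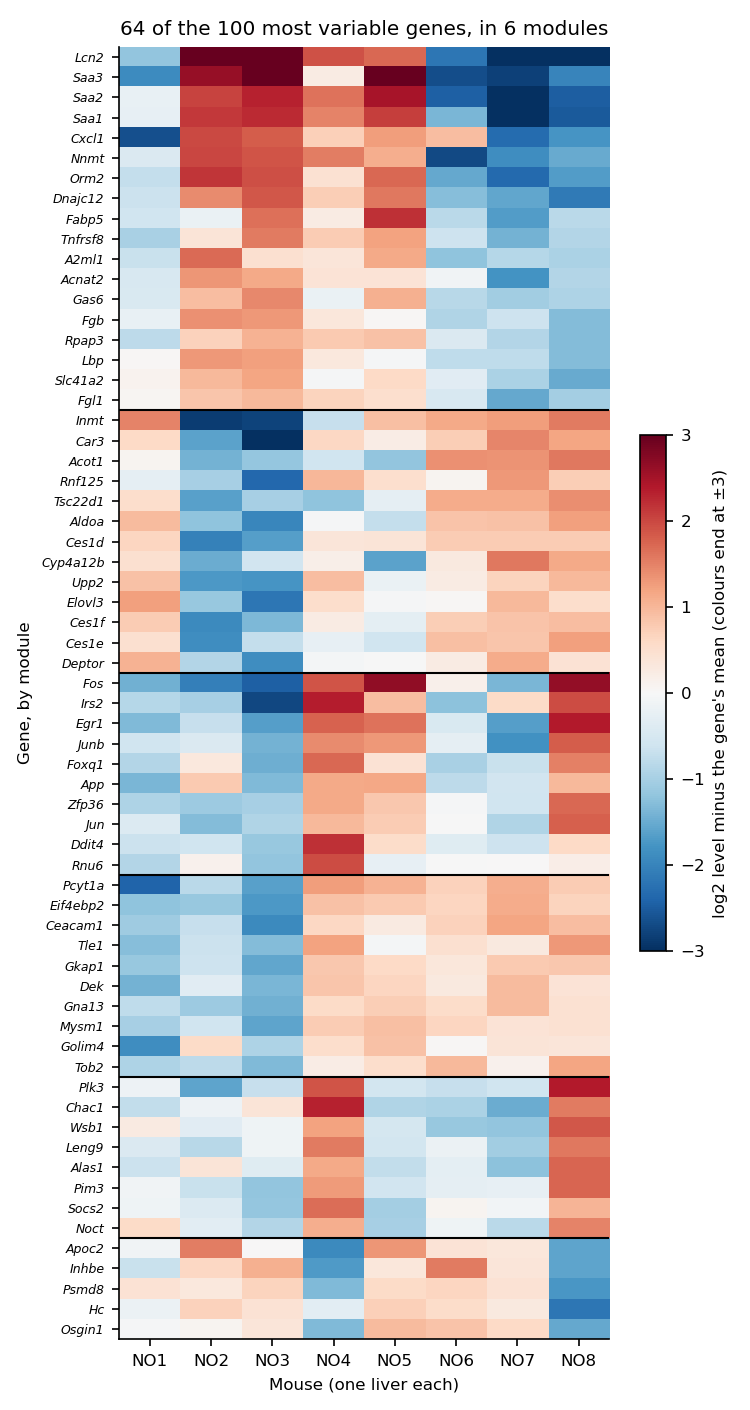
Level of 64 genes in each NO liver minus the mean of the gene (colour, log2, colours end at ±3), with 1 row per gene, 1 column per mouse and black lines between the 6 modules. The first module is mostly red in NO2 to NO5 and the second blue in NO2 and NO3. The third is mostly red in NO4, NO5 and NO8, and the fourth mostly blue in NO1 to NO3.

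Genes of fuel metabolism varied along yet other lines. Of 17 detected genes of fatty acid synthesis 9 had an SD of 0.5 or more (median 0.50), beside 11.2% of all genes. Their median correlation was 0.60, with 135 of 136 pairs above 0, but without NO5, where the list lay highest (mean deviation 1.05), it was 0.19 with 81 pairs above 0. Thrsp, a lipogenic regulator that carbohydrate induces, ran from 7.23 in NO2 to 12.74 in NO5 (SD 1.64). NO5 was the highest liver for Pklr (9.61), the liver pyruvate kinase, for Scd1 (14.53), the stearoyl-CoA desaturase, for Srebf1 (9.55), the regulator of the pathway, and for Acly (13.05), where the other 7 lay between 11.75 and 12.13. The limma model on Scd1 called no gene (320 of 5374 at an unadjusted p under 0.05, and 294 with the exact permutation test, which also called none). Of 10 genes of gluconeogenesis 7 had an SD of 0.5 or more (median 0.73), beside 11.2% of all genes, with a median correlation of 0.19. G6pc, which releases glucose from the liver, was lowest in NO2 (10.71) and NO3 (11.35) and highest in NO8 (14.30), and its SD was 0.80 without NO2 and NO3 in place of 1.31. Pck1, which makes phosphoenolpyruvate, was lowest in NO5 (7.66) and highest in NO4 (10.01).

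Acot1 was also fitted, as the first detected gene of the list of PPARα targets. The model called 35 of 5374 genes (0.651%), 13 rising with Acot1 and 22 falling. None of the 10 other detected PPARα targets was called, which is near that share for so few genes. Fgf21, a fasting hormone, came nearest among them (slope 0.62 ± 0.22, limma, adjusted p = 0.334). Of the 35 genes 17 were also among the 20 called on Saa2, itself one of the 35. Acot1 and Saa2 were closely and inversely correlated across the same 8 livers, so this overlap is not a separate finding. Ces1e, a carboxylesterase (0.76 ± 0.11, adjusted p = 0.0132), Aox3, an aldehyde oxidase (0.49 ± 0.08, 0.0217), and Nox4, an NADPH oxidase (0.49 ± 0.08, 0.0286), rose with Acot1. The exact permutation test called none of them (556 genes at an unadjusted p under 0.05). Limma called 7 with detected-probe number in the model, and 2, Dnajc12 and Saa2, without both NO2 and NO3. Without 1 mouse it called 7 (without NO2), 13 (NO3), 21 (NO6), 12 (NO7) and 8 (NO8).

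Male growth hormone pattern genes, which in mice follow the pulses of growth hormone, and genes of drug metabolism were examined against Saa2. Of 20 detected growth hormone genes none was called, which is near the share of 0.372% over all genes. At an unadjusted limma p under 0.05, 8 of them had a negative slope and none a positive one, beside 4.93% and 4.91% of all genes. Of 16 xenobiotic genes 2 were called, and 8 had a negative and 1 a positive slope at an unadjusted p under 0.05, beside 4.93% of all genes with a negative one. Without NO2 and NO3 these counts of negative slopes were 1 of 20 and 4 of 16, beside 3.11% of all genes. Cyp2c50 and Cyp2c37, steroid and drug hydroxylases, were the 2 called genes (-0.27 ± 0.04, adjusted p = 0.0194, and -0.23 ± 0.04, adjusted p = 0.0322). Cyp2c50 was lowest in NO3 (11.61), NO2 (11.74) and NO5 (12.01) and highest in NO7 (13.42). Mup2, a major urinary protein that carries pheromones, was the gene fitted for this list. Its own SD was 0.10, among the lowest 1.95% of genes, at a mean of 14.78 near the top of the scale, and its probe may read other members of that near-identical family. The model on Mup2 called 45 of 5374 genes (0.837%), 20 rising and 25 falling. None of its 19 fellow members was called, which is near that share for so few genes. Car3 (r = 0.938, exact permutation p = 2.48e-05, the smallest possible, adjusted 0.133) and Aldh3a2 (r = 0.957, exact permutation p = 0.000174, adjusted 0.133) had the smallest limma p. No gene was called by the exact permutation test, with detected-probe number in the model, without NO2, NO3 or NO6 alone, or without NO2 and NO3 together, and 4 were called without NO8 and 79 without NO1.

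Of the other genes fitted, Sqle, squalene epoxidase of cholesterol synthesis, had 1 called gene (0.0186%), Mt1 (slope 2.82 ± 0.25, limma, adjusted p = 0.00271, r = 0.972, exact permutation p = 0.000149, adjusted 0.114, rho = 0.952, exact permutation p = 0.00114, and r = 0.927 without NO1 and NO7). None of its 15 fellow members was called, which is near the share of 0.0186% over all genes. Without NO1 the model called 26 genes, without NO6 2 and without NO8 3. The models on Dbp (clock), Hspa8 (heat shock), Fkbp5 (glucocorticoid response), Ifit3 (interferon) and Cd74 (antigen presentation) called 0 genes with limma and with the exact permutation test, with 552, 634, 286, 588 and 271 genes of 5374 at an unadjusted limma p under 0.05 and 561, 555, 235, 503 and 265 with the exact permutation test. Without NO3, 5 genes were called on Ifit3 and 1 on Cd74. The number of detected probes called 0 of 5375 genes with limma (659 at an unadjusted p under 0.05), the nearest being Inmt (-0.58 ± 0.07 per 100 probes, adjusted p = 0.0627).

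Several other lists also had a median SD above that of all genes (0.27). The 12 genes of the glucocorticoid response had a median SD of 0.64 with 9 at 0.5 or more, the 14 pericentral genes 0.54 with 8, the 16 xenobiotic genes 0.51 with 8, and the 14 interferon genes 0.47 with 6, beside 11.2% of all genes. The glucocorticoid list shares Lcn2, its member of largest SD (2.95), with the acute phase list. The 59 genes of oxidative phosphorylation had a median SD of 0.20 and the 44 of the cytosolic ribosome 0.18, with 1 and 0 genes at 0.5 or more, beside 11.2% of all genes, and with median correlations of 0.33 and 0.05. The 10 hepatocyte markers had a median SD of 0.18, with 2 at 0.5 or more. Cd74 and H2-Ab1, of antigen presentation, correlated with each other at 0.954 (rho = 0.905, exact permutation p = 0.00062 and 0.00456, not called after adjustment over the 5374 genes), with the highest levels in NO6 (9.64 and 9.01) and the lowest in NO4 (8.01 and 7.77). Hbb-bt, a globin of red cells, ran from 6.87 in NO8 to 11.13 in NO4 (SD 1.45), while the globin Hba-a1 ran from 12.57 in NO8 to 14.19 in NO2 (SD 0.61). Globin genes are close copies, so their probes may share signal. The 8 detected endothelial markers were lowest on average in NO5 (mean deviation -0.62), and their median correlation was 0.58, and 0.05 without that mouse.

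**Figure D4:**
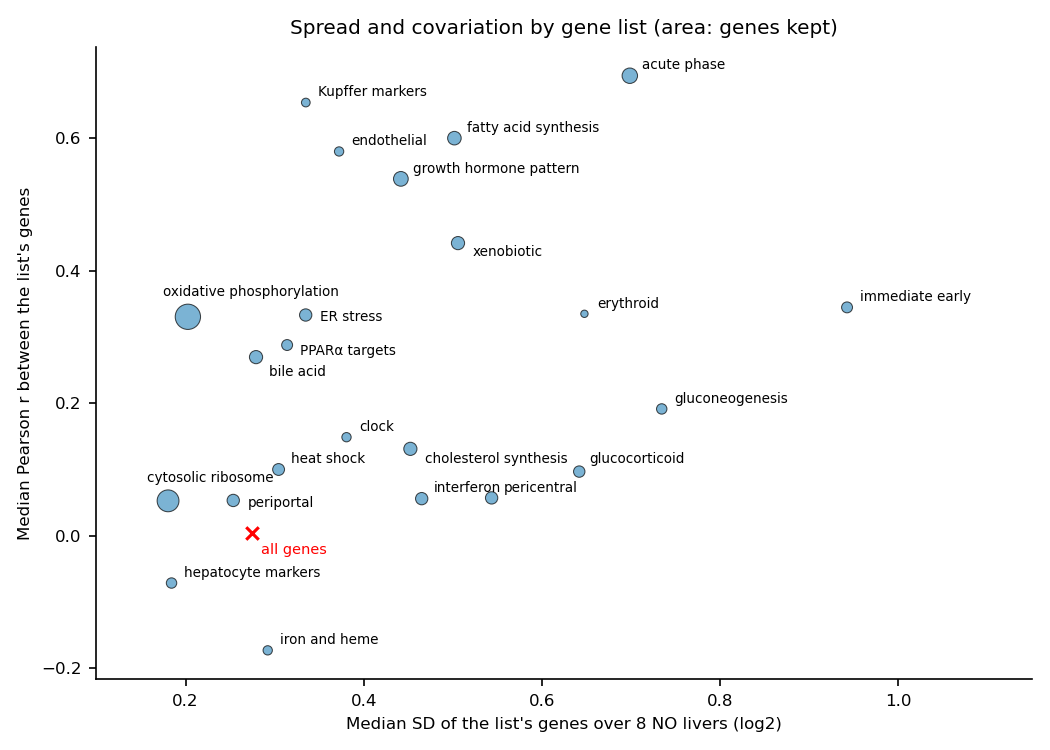
Median SD (horizontal, log2) against median Pearson correlation between genes (vertical) for the 23 lists with 5 or more detected genes, with point area in proportion to the number of genes and a red cross for all genes. The acute phase list lies highest in correlation (0.69) at a median SD of 0.70, the immediate early list farthest right (0.94), and the ribosomal and hepatocyte lists lie left of the cross at 0.27.

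Whether the spread belongs to the gene or to one probe was examined in the 1103 genes with 2 or more detected probes. The 2 brightest probes correlated across the 8 mice at an adjusted exact permutation p under 0.05 in 348 genes (31.6%), 345 positively and 3 negatively (Acadl, Saraf and Selenop), with a median r of 0.63. Agreement went with spread. The median r was 0.46 for the 317 genes with an SD under 0.2 and 57 were called, whereas it was 0.91 for the 78 genes with an SD of 0.5 to 1 (54 called) and 0.98 for the 11 of 1 or more (9 called). Nnmt was read alike by both probes (r = 0.986, SDs 1.86 and 1.98, exact permutation p = 0.000149, adjusted p = 0.00421). The 2 exceptions were Apoc2, an apolipoprotein that activates lipoprotein lipase (r = -0.331, SDs 1.23 and 0.46, exact permutation p = 0.414), and Slc2a2, the glucose transporter GLUT2 (r = 0.344, SDs 1.06 and 0.93, exact permutation p = 0.436). The 2 probes of each of these genes thus gave different patterns across the mice, with like SDs for Slc2a2 and unlike ones for Apoc2. Lcn2, Saa1, Saa2, Saa3, Fos and Egr1 had 1 probe each that was detected on all arrays, so they have no second reading here.

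**Figure D5:**
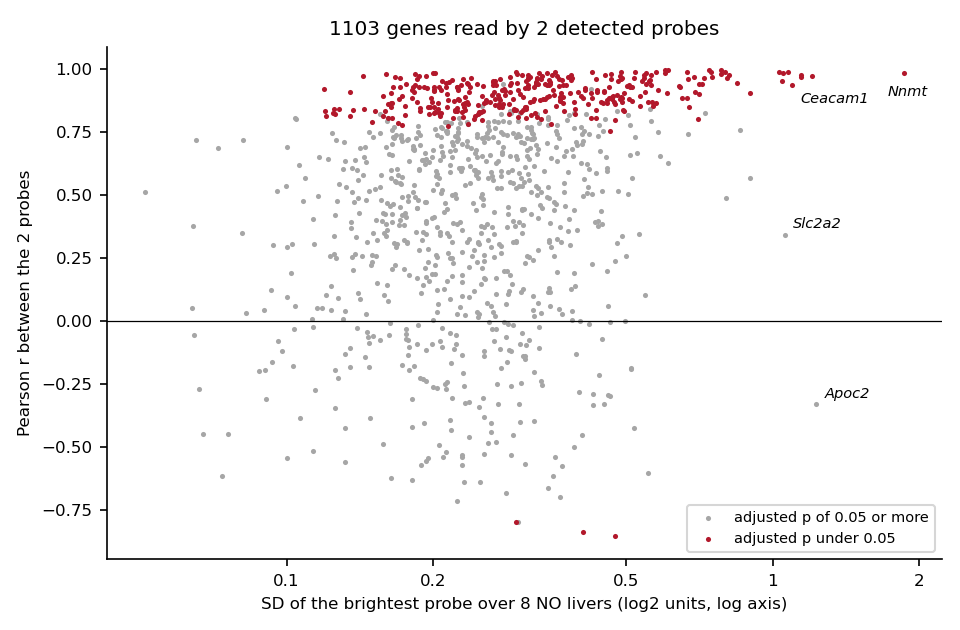
Correlation between the 2 brightest probes of a gene over the 8 NO livers (vertical) against the SD of the brighter one (horizontal, log2, on a log axis), for 1103 genes, with the 348 at an adjusted p under 0.05 in red. Points gather near 1 as the SD grows, with Apoc2 (-0.331) and Slc2a2 (0.344) as the exceptions above an SD of 1.

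A principal component analysis of all 5375 genes placed 33.6% of the variance on a first component and 19.9% on a second. NO3 (26.0) and NO2 (22.0) had the highest scores on the first and NO8 (-19.4) and NO7 (-11.6) the lowest. Its largest loadings were those of Lcn2, Saa3, Saa2, Saa1 and Orm2 at one end and of Inmt, Car3, Fos, Irs2 and Ces1d at the other. Without the 22 acute phase genes the first component held 32.4% of the variance. Without NO2 and NO3 a first component of 33.8% had NO1 (-19.7) opposite NO4 (17.9), with Fos, Lcn2, Saa3, Egr1 and Saa2 at one end and Ppp1r3c, Id3, Serpina12, Aatk and Rusc2 at the other. On the second component NO1 (19.9) lay opposite NO4 (-16.5) and NO5 (-12.9), with Ppp1r3c, Id3, Rusc2, Aatk and Alas2 at the end of NO1 and Fos, Saa3, Lcn2, Egr1 and Cxcl1 at the other.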

How the data were processed

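RNA of the livers (250 ng) was amplified, labelled and hybridized to Illumina MouseRef-8 v2.0 arrays, 1 array per mouse. The deposited values are probe signal intensity with a detection p-value per probe, exported by the authors from GenomeStudio. On the NO arrays they range from 101.33 to 34877 with medians of 136.28 to 136.45, and sorted values of any 2 liver arrays differ by at most 0.609%, so they had already been normalised between arrays. A second deposited table holds the authors' processed values, which were put on a log2 scale here as an alternative. Arrays do not count molecules, so the number of mice and the signal over background limit the precision.

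The intensity of all 15 liver arrays was background corrected and quantile normalised together with neqc (limma 3.58.1, R 4.3.3, offset 16). The other livers thus entered this normalisation, and only the 8 NO arrays were used after it. With neqc on the 8 NO arrays alone, 602 genes had an SD of 0.5 or more in place of 601. Beyond the normalisation, the remaining livers were not analysed here, nor were the fat samples. Probes with a detection p-value under 0.01 on all 8 arrays were kept, and a gene was read from its brightest such probe. Of the 7186 probes, 427 have no single gene symbol in the platform annotation and were left out. The SD has a 95% chi-square interval. Covariation was fitted with limma (lmFit and eBayes) on 10 genes, each the first detected member of a list, in the order written, with Benjamini-Hochberg adjustment over all genes. Exact permutation tests used all 40320 orders of the 8 mice and were two-sided. A mouse was taken as far from the others where its gap to the nearest one exceeded 0.526 of the range (Dixon). Modules came from average linkage on 1 minus r over the 100 genes of largest SD, parted at a distance of 0.3. Scripts were tested on simulated data.

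The text names the 30 genes of largest SD. Rules for further genes took the 4 members of each list with the largest SD. They also took the 5 with the smallest p in each direction for a fitted gene. The 5 largest loadings at each end of a component, and the members of any count of 5 or fewer, were taken as well. Genes picked by these rules are counted as named genes, but not all of them are printed. Other members of modules and lists were named after their values were seen. The members and the 34 lists were chosen with earlier results of these data known. Each mouse is 1 liver, and no technical repeats were analysed. Promoters were read from RefSeq (GRCm38.p6), 250 bases upstream of the start. Alternatives covered normalisation, offset, detection, the choice of probe, the measure of spread, the test, and leaving out each mouse.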

Additional observations from a re-analysis of the deposited data

Results flagged for a closer look

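Among 131 named genes examined, 11 (8.4%) had 1 mouse far from the other 7, where chance alone flags about 1 in 20 groups and 6.49% of all genes had such a mouse. In each of the 11 the distant mouse was the lowest. The gap is given as a share of the range of the 8 mice.

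Hamp, which encodes hepcidin, was low in NO4 (12.07, median 14.21, gap 0.773), and Ppp1r3c, a glycogen-targeting subunit of protein phosphatase 1, was low in the same mouse (9.30, median 11.98, gap 0.536). Low in NO3 were the drug oxidase Cyp3a11 (10.10, median 12.26, gap 0.647), the canalicular exporter Abcc2 (7.27, median 9.48, gap 0.609), the uptake transporter Slco1b2 (8.41, median 10.38, gap 0.577) and Anxa3, an annexin with an SD of only 0.12 (gap 0.553). The glucose transporter gene Slc2a2 was low in NO2 (8.22, median 10.65, gap 0.631), but its second probe did not follow it (r = 0.344).

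Cyp3a13 was low in NO8 (9.98, median 11.83, gap 0.579), as was Apoh, a plasma glycoprotein, by a smaller amount (12.63, median 13.38, gap 0.635). Mvd, of cholesterol synthesis, was low in NO1 (7.20, median 8.85, gap 0.589), and Tek, the endothelial angiopoietin receptor, was low in NO5 (6.81, median 7.76, gap 0.643), where the endothelial markers were lowest on average. What set these single livers apart was not tested.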

How the results depend on the processing

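No paired analysis was possible because the 8 livers form 1 group and no groups were compared. The count of genes with an SD of 0.5 or more (601) was 311 on the deposited signal, 355 on the authors' processed values and 2084 with detection on at least 1 array, which admits dim probes. That of 1 or more (70) was 41 on the deposited signal and 227 with detection on at least 1 array. Of the 30 genes of largest SD, 8 stayed in the 30 with detection on at least 1 array and 17 by the median absolute deviation. Leaving out 1 mouse gave 546 to 691 and 68 to 82 genes, a median SD of 0.259 to 0.281 and 25 to 27 of the 30 genes. By Spearman's rho, 188 genes had agreeing probes. Genes called on Sqle numbered 14 on the deposited signal, 23 with a trended robust fit and 0 by the exact permutation test, and 1 to 26 without 1 mouse. Those on Acot1 numbered 7 with detected-probe number as a covariate, 2 without NO2 and NO3, 0 by the exact test and 7 to 33 without 1 mouse. Those on Saa2 numbered 8, 5 and 0 under these settings, 35 on the deposited signal, 32 with the trended robust fit and 7 to 24 without 1 mouse. Those on Mup2 numbered 0 with the covariate, 0 without NO2 and NO3, 0 by the exact test and 0 to 79 without 1 mouse. Without 1 mouse, Ifit3 gave 0 to 5 genes, Cd74 0 to 1, and Dbp, Scd1, Hspa8 and Fkbp5 0 each. The number of detected probes called 1 gene on the deposited signal. Of 3434 SDs of 202 named genes under 17 alternatives, 194 left the 95% interval. Leaving out both NO2 and NO3, leaving out NO5 for lists, and every alternative for an SD of 1 were chosen after seeing the data. The cause of these differences was not tested.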
